A study of Homo sapiens with 9 samples.

Results

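The mRNAs of HUWE1 and 7 other ubiquitin ligases of the HECT class (TRIP12, HERC1, HERC2, HERC4, UBE3A, UBE3C and ITCH) were followed in HCT116 cells, a human colorectal carcinoma line, in which the endogenous HUWE1 gene had been edited. The 8 genes were chosen by symbol, and all 8 had a row (Entrez identifiers 10075, 9320, 8925, 8924, 26091, 7337, 9690 and 83737 in the order HUWE1, TRIP12, HERC1, HERC2, HERC4, UBE3A, UBE3C, ITCH) among the 11350 genes of the count table. The comparison asks whether related ligases changed in cells in which HUWE1 mRNA was lower. All cells were untreated and came as 3 lines with 3 replicates of each. HUWE1-P are the parental cells, which carry no edit. HUWE1-WT and HUWE1-CS cells both received a repair template that rewrote the end of the HUWE1 reading frame and was followed by a P2A peptide and a blasticidin resistance gene, and both were selected with puromycin and blasticidin and grown from single cell clones. In HUWE1-WT cells the catalytic cysteine was kept, and in HUWE1-CS cells it was replaced by serine. HUWE1-CS cells thus differ from HUWE1-P cells in the serine, the resistance cassette, the selection and the cloning, and from HUWE1-WT cells, by design, in the serine alone, besides being another clone. The labels do not state how many clones stand behind the replicates, so that clone and genotype cannot be told apart, and the p-values measure only the spread between these libraries.

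HECT ligases are one of the large classes of E3 ubiquitin ligases. A cysteine near the end of the protein takes ubiquitin from an E2 enzyme as a thioester and then passes it to a lysine of the substrate, so that exchange of this cysteine for serine blocks the transfer. The rest of each protein, which differs widely between members, selects the substrate. HUWE1 acts on many proteins, among them MCL1, p53, N-MYC and histones. TRIP12 acts on fusion substrates with an N-terminal ubiquitin and restrains RNF168 at DNA breaks. HERC1, HERC2 and HERC4 share RCC1-like repeats, UBE3A is the E6-AP protein that is lost in Angelman syndrome, UBE3C works at the proteasome, and ITCH belongs to the NEDD4 family, whose WW domains bind PY motifs.

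The codon of the catalytic cysteine, which is the site edited in HUWE1, was read from the reference in all 8 genes, to show what the members have in common and where the edit lies. The sequences are from GRCh37 with GENCODE annotation, are written 5′ to 3′ on the coding strand and hold 12 bases either side of the codon, which is in capitals.
HUWE1: tcagctcacacaTGTtttaatcagctg
TRIP12: tctgtaatgactTGTgtgaactatctt
HERC1: acctcacagaccTGCttcttccagctg
HERC2: gagtcctacaccTGTttcttcttgctg
HERC4: gtttcccatactTGTtttaatcttctg
UBE3A: acatctcatactTGCtttaatgtgctt
UBE3C: acagccagcaccTGCatgaacctgctg
ITCH: agaagtcataccTGTtttaatcgcctg
The codon was found by a rule, the last cysteine after a threonine within 100 residues of the end of the annotated protein. In HUWE1 this is residue 4341 of 4374, the residue that was edited. It lay 32 to 72 residues from the end in the 8 proteins. In HERC2 it lay 72 and in HERC1 50 residues from the end, and in the other members 32 or 33. ITCH had 2 cysteines that met the rule, of which the last was taken, and every other member had 1. The codon was TGC in HERC1, UBE3A and UBE3C and TGT in the other members. Of the 27 bases of the window, UBE3A and ITCH shared 19 with HUWE1, HERC4 18, UBE3C 17, HERC1 16, and TRIP12 and HERC2 14 each.

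The positions of these codons differ in one respect. In HUWE1 the codon is split by an intron, with its first base at chrX:53560969 and its second at chrX:53560968 in exon 82, and its last at chrX:53560372 in exon 83, the last exon. In ITCH the codon is split at the same place, with 2 bases in exon 24 (chr20:33092207-33092208) and the last at chr20:33095500 in exon 25, also the last. In the other 6 genes the window lies whole in the last exon, in exon 42 of TRIP12 (chr2:230632360-230632386), 78 of HERC1 (chr15:63901421-63901447), 93 of HERC2 (chr15:28357116-28357142), 25 of HERC4 (chr10:69682775-69682801), 13 of UBE3A (chr15:25584371-25584397) and 23 of UBE3C (chr7:157060336-157060362). UBE3C and ITCH are on the plus strand and the others on the minus strand. The counts are sums per gene and carry no information on the codon, so that the exchange itself could not be read from them.

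The members do not form one class of size. HUWE1, HERC1 (4861 residues) and HERC2 (4834 residues) are giant proteins and TRIP12 has 2067 residues, while UBE3C, HERC4, UBE3A and ITCH have 1083, 1049, 872 and 862. The transcripts range from 4424 bases in HERC4 to 15364 in HERC2. Length matters below, because the change between lines varied with transcript length over all genes.

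The deposited values are read counts per gene, given here as CPM, the usual count scaled for library depth, with TMM scaling of the totals, as mean ± SD of 3 libraries. Library totals were between 1610984 and 2060349 counts. Between 569 and 1083 counts of HUWE1 were found in a library, but only between 40 and 72 of HERC1, so that HERC1 carries a far wider counting error. Genes are said to have risen or fallen where edgeR's quasi-likelihood test, over all 11350 genes, gave an adjusted p (Benjamini-Hochberg) of at most 0.01. Of 8 markers of colon epithelium, 5 had a row (EPCAM, KRT8, KRT18, KRT19 and CDH1), while CDH17, VIL1 and CDX1 had none. The 5 had summed levels between 3643 and 4511 CPM in every library. Their sum was 3643 to 4015 CPM in HUWE1-CS cells, 4093 to 4217 in HUWE1-P cells and 4117 to 4511 in HUWE1-WT cells. The sum is mostly keratin, and its members went both ways, with KRT8 (log2 fold change -0.32 and -0.37) and KRT18 (-0.30 and -0.26) called lower against HUWE1-P and HUWE1-WT cells and CDH1 (0.53 and 0.48) and EPCAM (0.28 and 0.24) called higher. Of 8 markers of blood, endothelial and stromal cells, CD68, COL1A1 and ACTA2 had a row and together gave 22.6 to 44.2 CPM (22.6 to 32.6 in HUWE1-CS cells). Of these, COL1A1 was called lower (log2 fold change -0.96 and -0.88). ACTA2 was called higher against HUWE1-P cells (2.01), from 1.97 to 8.32 CPM, but had only 1, 6 and 4 counts in the HUWE1-P libraries. It did not pass against HUWE1-WT cells (log2 fold change 0.80, edgeR adjusted p = 0.121). PTPRC, CD3E, PECAM1, VWF and COL1A2 had no row. The part of these differences in the members' values was not tested.

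HUWE1, the targeted gene, was lower in HUWE1-CS cells than in both other lines. HUWE1-P libraries had 561, 545 and 522 CPM, HUWE1-WT libraries 498, 453 and 455 CPM, and HUWE1-CS libraries 345, 323 and 339 CPM. The 3 HUWE1-CS libraries were the lowest of the 9 and the lines did not overlap. The fitted level was 61.9% of that in HUWE1-P cells (95% interval 56.6% to 67.7%, log2 fold change -0.69, edgeR adjusted p = 1.06e-15) and 71.7% of that in HUWE1-WT cells (65.4% to 78.5%, log2 fold change -0.48, edgeR adjusted p = 4.68e-09). HUWE1-WT cells had 86.4% of the parental level (79.3% to 94.2%), which did not pass the test over all genes (edgeR adjusted p = 0.354, unadjusted p = 0.00112). Both edited lines carry the rewritten end of HUWE1 and the cassette, which HUWE1-P cells lack. How reads of that part were counted is not given in the sources used here. Its share in the differences from HUWE1-P cells was not tested. In RNA from whole cultures, less mRNA in each cell and fewer cells with the mRNA cannot be told apart.

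**Figure D1:**
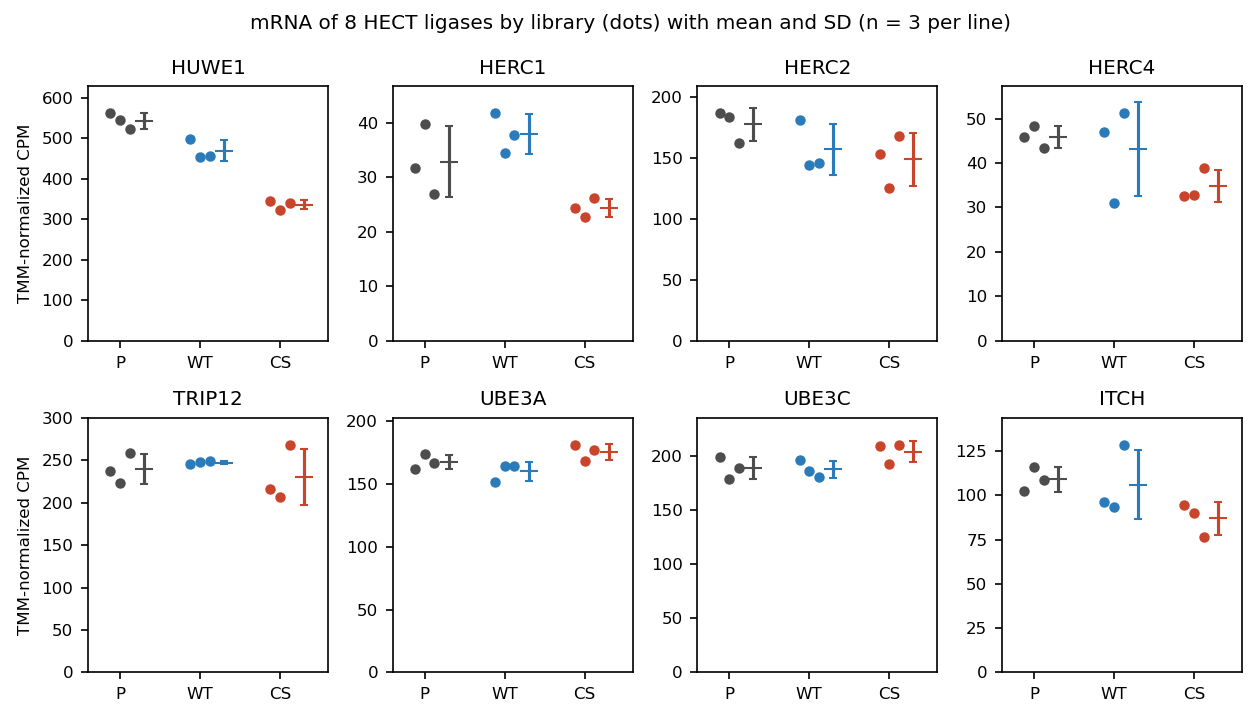
TMM-normalized CPM of the 8 ligases in the parental (P), cysteine-edited (WT) and serine-edited (CS) lines, one dot per library in the order of the replicate numbers, with mean and SD of 3 libraries beside the dots and each axis starting at 0. HUWE1-CS libraries lie below all 6 control libraries in HUWE1 (323 to 345 against 453 to 561 CPM) and in HERC1 (22.7 to 26.1 against 27.0 to 41.7 CPM), and the other 6 genes overlap.

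Among the other 7 ligases HERC1 alone passed the test, and only against HUWE1-WT cells. Whether the 7 changed as a group was not tested. Against HUWE1-P cells HUWE1 alone passed the test, 1 of 8 members, beside 17.0% of all genes called in either direction and 8.58% called lower. Against HUWE1-WT cells HUWE1 and HERC1 passed, 2 of 8, beside 15.5% of all genes called and 8.08% called lower. HERC2, HERC4 and ITCH had lower fitted levels in HUWE1-CS cells in both comparisons without passing, TRIP12 was close to its controls, and UBE3A and UBE3C had slightly higher fitted levels. The median log2 fold change of the 8 genes was -0.29 against HUWE1-P and -0.19 against HUWE1-WT cells, HUWE1 included, and that of all genes was -0.01 and -0.00059. Both comparisons use the same HUWE1-CS libraries, so that their values are not independent.

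**Figure D2:**
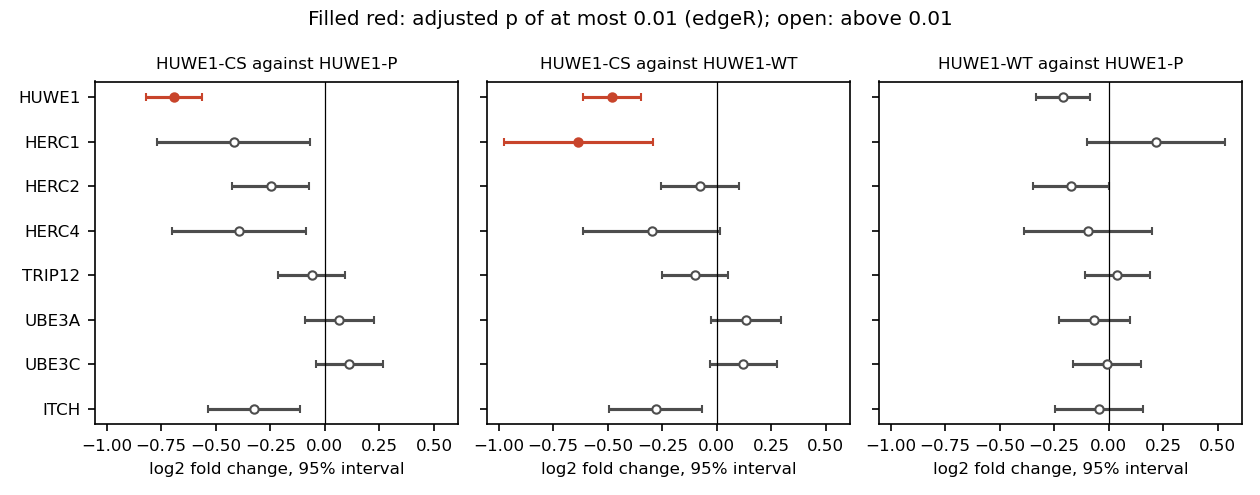
Log2 fold changes of the 8 ligases with 95% intervals, one panel for each comparison of lines. Filled red points passed an edgeR adjusted p of 0.01 and are HUWE1 and, against HUWE1-WT cells, HERC1, while no member is filled in HUWE1-WT against HUWE1-P cells.

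HERC1, a giant HERC protein that binds clathrin and ARF and Rab GTPases, was the member that fell beside HUWE1. Its levels were 31.7, 39.8 and 27.0 CPM in HUWE1-P, 41.7, 34.4 and 37.8 CPM in HUWE1-WT, and 24.3, 22.7 and 26.1 CPM in HUWE1-CS libraries. The HUWE1-CS libraries were the 3 lowest, but the highest of them lay close to the lowest HUWE1-P library. The fitted level was 64.4% of that in HUWE1-WT cells (95% interval 50.8% to 81.6%, log2 fold change -0.64, SE 0.173, edgeR adjusted p = 0.00323) and 74.8% of that in HUWE1-P cells (58.6% to 95.5%, log2 fold change -0.42, edgeR adjusted p = 0.0700), which did not pass. The call against HUWE1-WT cells rests on single libraries, since the edgeR adjusted p was 0.0264 without HUWE1-WT replicate 1, 0.0106 without HUWE1-WT replicate 3, 0.0128 without HUWE1-CS replicate 1 and 0.0226 without HUWE1-CS replicate 2. DESeq2 gave an adjusted p of 0.0390. When HUWE1-CS cells were set against the mean of both control lines, a contrast added after the data had been seen, HERC1 had a log2 fold change of -0.53 (edgeR adjusted p = 0.00487) and HUWE1 of -0.59, in a comparison in which 21.4% of all genes were called.

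HERC2, the second giant HERC protein, works at DNA breaks with RNF8 and binds UBE3A. HUWE1-P libraries had 187, 184 and 162 CPM, HUWE1-WT libraries 181, 145 and 146 CPM, and HUWE1-CS libraries 154, 125 and 168 CPM. The lines overlapped, since HUWE1-CS replicate 3 lay above 3 of the 6 control libraries. HERC2 had a log2 fold change of -0.25 against HUWE1-P (95% interval -0.42 to -0.07, edgeR adjusted p = 0.0267) and of -0.08 against HUWE1-WT cells (-0.26 to 0.10, edgeR adjusted p = 0.590). Without HUWE1-CS replicate 3 it passed against HUWE1-P cells, with a log2 fold change of -0.34 and an edgeR adjusted p of 0.00611. HERC2 has transcribed copies of part of its sequence, and how reads shared with them were counted is not given in the sources used here. Of these, HERC2P2 had 90.7 ± 9.41 CPM in HUWE1-P, 73.4 ± 15.1 in HUWE1-WT and 67.5 ± 2.55 in HUWE1-CS cells. It was called lower against HUWE1-P (log2 fold change -0.43, edgeR adjusted p = 0.00278) but not against HUWE1-WT cells (edgeR adjusted p = 0.532). Against HUWE1-P cells the edgeR adjusted p was 0.0393 without HUWE1-P replicate 2, 0.0192 without HUWE1-CS replicate 1 and 0.0119 without HUWE1-CS replicate 2. With the length trend taken out it was 0.0103, and 0.0115 with a replicate block too. The DESeq2 adjusted p was 0.0402. HERC2P3 and HERC2P9 passed in neither comparison, and the HERC2 level is uncertain to the extent that reads were shared.

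HERC4, a small HERC protein, had 45.9, 48.3 and 43.4 CPM in HUWE1-P, 46.9, 31.1 and 51.2 CPM in HUWE1-WT, and 32.6, 32.9 and 38.9 CPM in HUWE1-CS libraries. HUWE1-WT replicate 2 was the lowest library of all 9, and the other 5 control libraries lay above every HUWE1-CS library. The log2 fold change was -0.39 against HUWE1-P (95% interval -0.70 to -0.09, edgeR adjusted p = 0.0486) and -0.30 against HUWE1-WT cells (-0.61 to 0.01, edgeR adjusted p = 0.165).

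ITCH, which ubiquitinates JUN proteins and p63, had 102, 116 and 108 CPM in HUWE1-P, 96.2, 93.3 and 129 CPM in HUWE1-WT, and 94.4, 90.2 and 76.6 CPM in HUWE1-CS libraries. HUWE1-CS replicates 2 and 3 were the lowest of the 9 libraries, and replicate 1 lay between HUWE1-WT replicates 2 and 1. The log2 fold change was -0.33 against HUWE1-P (95% interval -0.54 to -0.12, edgeR adjusted p = 0.0147) and -0.28 against HUWE1-WT cells (-0.49 to -0.07, edgeR adjusted p = 0.0439). Against the mean of both control lines it was -0.30 (edgeR adjusted p = 0.00782), so that ITCH passed there too. In that comparison 3 of 8 members (HUWE1, HERC1 and ITCH) were called, all lower, beside 10.7% of all genes called lower.

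TRIP12 had 238, 223 and 259 CPM in HUWE1-P, 245, 248 and 249 CPM in HUWE1-WT, and 217, 207 and 268 CPM in HUWE1-CS libraries. HUWE1-CS libraries gave both the lowest values and the highest of the 9. The interval of the log2 fold change ran from -0.21 to 0.09 against HUWE1-P and from -0.25 to 0.05 against HUWE1-WT cells (edgeR adjusted p = 0.611 and 0.371), so that a fall of TRIP12 as large as that of HUWE1 lies outside both.

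UBE3A had 162, 173 and 166 CPM in HUWE1-P, 151, 164 and 164 CPM in HUWE1-WT, and 181, 168 and 177 CPM in HUWE1-CS libraries. HUWE1-CS replicates 1 and 3 were the highest of the 9, and replicate 2 lay below HUWE1-P replicate 2. The interval of the log2 fold change was -0.09 to 0.23 against HUWE1-P and -0.03 to 0.29 against HUWE1-WT cells (edgeR adjusted p = 0.591 and 0.241). A long RNA antisense to UBE3A is known from neurons. It had no row in the table used here, and use of strand in the counting is not given in the sources used here, so that reads of both strands cannot be told apart.

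UBE3C had 200, 179 and 189 CPM in HUWE1-P, 196, 187 and 181 CPM in HUWE1-WT, and 210, 193 and 211 CPM in HUWE1-CS libraries. HUWE1-CS replicates 1 and 3 were again the highest of the 9 and replicate 2 lay within the controls. The interval of the log2 fold change was -0.04 to 0.26 against HUWE1-P and -0.03 to 0.27 against HUWE1-WT cells (edgeR adjusted p = 0.301 and 0.272). No member passed the test as higher in any comparison. The summed level of the other 7 ligases was 962 ± 5.83 CPM in HUWE1-P, 939 ± 32.8 in HUWE1-WT and 906 ± 63.4 in HUWE1-CS cells.

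Counted without the threshold, 5 of the 8 members had an unadjusted p under 0.05 against HUWE1-P cells and all 5 were lower (HUWE1, HERC1, HERC2, HERC4 and ITCH). Beside them stood 36.1% of all genes in either direction, 4100 of 11350, of which 2099 were lower. Against HUWE1-WT cells there were 3 of 8 (HUWE1, HERC1 and ITCH), all lower. Beside these stood 35.0% of all genes in either direction, 3968 of 11350, of which 2013 were lower. At an adjusted p of at most 0.05, 4 of 8 passed against HUWE1-P (HUWE1, HERC2, HERC4 and ITCH) and 3 of 8 against HUWE1-WT cells (HUWE1, HERC1 and ITCH), all lower, beside 26.4% and 24.4% of all genes in either direction. These 2 shares also count genes that were higher. HUWE1-CS libraries lay below all 6 controls in 2 of 8 members, HUWE1 and HERC1, beside 13.4% of all genes. Between the control lines 0 of 8 members passed by edgeR, by DESeq2 or by limma-voom, beside 0.0617% of all genes by edgeR, and HUWE1 alone had an unadjusted p under 0.05 (1 of 8 by each tool, beside 5.54% of all genes by edgeR).

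The balance between HUWE1 and the other ligases was read as the ratio of their counts within a library, which does not depend on the scaling of the library. HUWE1 made up 36.1 ± 0.707% of the counts of the 8 members in HUWE1-P, 33.3 ± 1.01% in HUWE1-WT and 27.1 ± 0.949% in HUWE1-CS cells. For each UBE3C count there were 2.87 HUWE1 counts in HUWE1-P, 2.49 in HUWE1-WT and 1.64 in HUWE1-CS cells, and for each UBE3A count 3.25, 2.94 and 1.92 in the same order. For TRIP12 the ratio was 2.27, 1.90 and 1.47, and for HERC2 it was 3.06, 3.00 and 2.28. In these 4 ratios every HUWE1-CS library lay below every control library. The fall of HUWE1 itself enters every ratio, so that the ratios are given as a description only.

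For the remaining 3 members the HUWE1-CS ratios overlapped with those of the controls. The ratio to ITCH was 4.99, 4.52 and 3.89 and that to HERC4 was 11.8, 11.4 and 9.70. The ratio to HERC1 was 16.9, 12.4 and 13.8. These ratios were computed after the data had been seen.

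**Figure D3:**
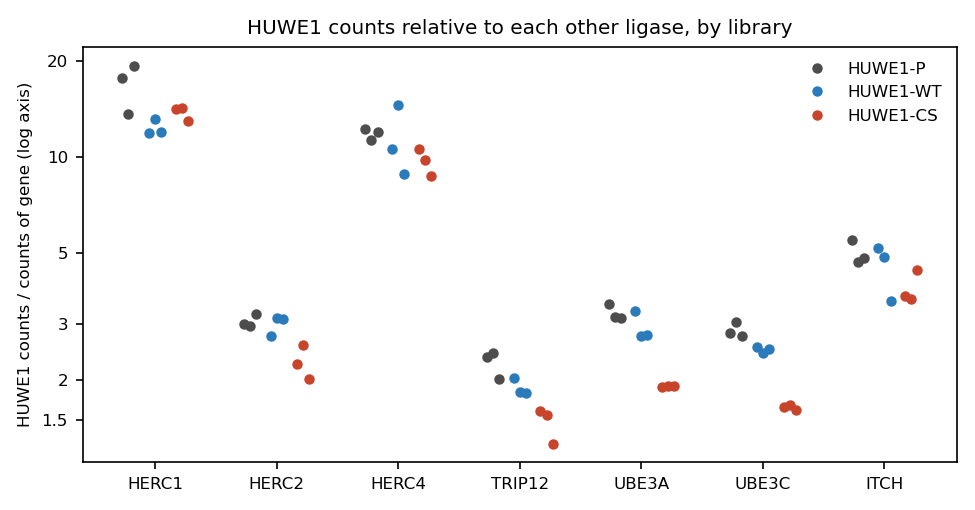
Counts of HUWE1 divided by counts of each other ligase in each library, on a log axis. The 3 HUWE1-CS libraries lie below all 6 controls for HERC2, TRIP12, UBE3A and UBE3C, with the widest gap for UBE3A (at most 1.92 against at least 2.76) and UBE3C (at most 1.67 against at least 2.43), and among the controls for HERC1, HERC4 and ITCH.

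Levels were compared between genes only per kilobase of the annotated transcript, which for HUWE1 was 14720 bases. In HUWE1-P cells HUWE1 (36.9 CPM per kb) and UBE3C (36.3) stood highest with overlapping libraries, followed by TRIP12 (23.8), UBE3A (19.2) and ITCH (16.2), then by HERC2 (11.6) and HERC4 (10.4), which overlapped, and by HERC1 (2.16). HUWE1-WT cells had the same order but for UBE3C (36.1 CPM per kb), which lay above HUWE1 (31.8) without overlap, and for UBE3A and ITCH, which overlapped. In HUWE1-CS cells UBE3C (39.2 CPM per kb) stood highest, and HUWE1 (22.8) overlapped with TRIP12 (22.8), above UBE3A (20.1). HERC1 was the lowest member in every line, with 1.60 CPM per kb in HUWE1-CS cells.

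The change in HUWE1-CS cells varied with transcript length over all genes, and the members are long. Against HUWE1-P cells the median was 0.19 on the log2 scale for 713 genes with transcripts under 1 kb, 0.01 for those between 2 and 4 kb and -0.14 for 827 genes between 8 and 14 kb. For the 125 genes of at least 14 kb, which include HUWE1, HERC1 and HERC2, it was -0.20, and 18.4% of them were called lower and 1.60% higher. Against HUWE1-WT cells the medians were 0.18 under 1 kb, -0.08 between 8 and 14 kb and -0.06 from 14 kb. The control lines differed with length too. In HUWE1-WT against HUWE1-P cells the medians of the same 3 classes were 0.02, -0.06 and -0.08. At the members' own lengths the trend over all genes against HUWE1-P cells stood at -0.19 for HUWE1, HERC1 and HERC2. It stood at -0.15 for TRIP12, -0.13 for UBE3A, -0.10 for ITCH, -0.06 for UBE3C and -0.05 for HERC4. HUWE1, HERC1, HERC4 and ITCH lay below this trend, HERC2 lay near it, and TRIP12, UBE3A and UBE3C lay above it.

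With the length trend taken out, HUWE1 remained lower, with a log2 fold change of -0.50 against HUWE1-P (edgeR adjusted p = 8.08e-12) and -0.38 against HUWE1-WT cells (1.04e-07). HERC1 then had -0.54 against HUWE1-WT cells (edgeR adjusted p = 0.0127) and no longer passed. HERC2 had -0.05 against HUWE1-P cells, HERC4 -0.35 and ITCH -0.22, and none passed. UBE3A stood at 0.20 against HUWE1-P (edgeR adjusted p = 0.0436) and 0.21 against HUWE1-WT cells (0.0346), which did not pass either.

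**Figure D4:**
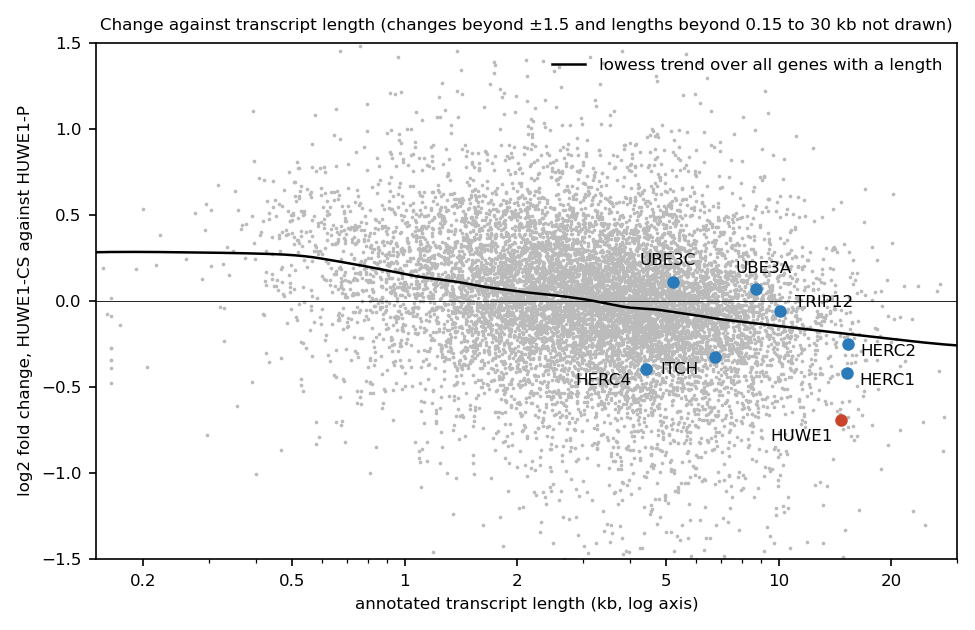
Log2 fold change of HUWE1-CS against HUWE1-P cells for each gene (grey) against annotated transcript length on a log axis, with the lowess trend over all genes as a line, HUWE1 in red and the other 7 ligases in blue. The trend falls from short to long transcripts, and HUWE1 (-0.69) lies further below it than any other member, with HERC4, ITCH and HERC1 also below it.

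The remaining HECT ligases were taken as a list of 20 genes, of which 19 had a row (HECW2 had none). Against HUWE1-P cells 2 of 19 fell (NEDD4 and NEDD4L) and none rose, and against HUWE1-WT cells 3 of 19 fell (NEDD4, NEDD4L and HERC3) and none rose, beside 8.58% and 8.08% of all genes called lower. Over the list the median was -0.09 on the log2 scale against HUWE1-P and -0.0041 against HUWE1-WT cells. No gene of the list passed in HUWE1-WT against HUWE1-P cells by edgeR (0 of 19, beside 0.0617% of all genes), where 2 had an unadjusted p under 0.05 (beside 5.54% of all genes). Whether the list differs from other genes was not tested.

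NEDD4L, which ubiquitinates ion channels, is a relative of ITCH and fell in both comparisons. Its level was 55.7 ± 2.62 CPM in HUWE1-P, 57.1 ± 8.95 in HUWE1-WT and 35.0 ± 2.37 in HUWE1-CS cells (log2 fold change -0.67 and -0.70, edgeR adjusted p = 1.33e-04 and 6.97e-05), with all HUWE1-CS libraries below all controls, and it passed in each of 21 alternative settings in both comparisons. NEDD4, the founding member of that family, had 27, 33 and 51 counts in HUWE1-P, 34, 33 and 28 in HUWE1-WT and 22, 14 and 14 in HUWE1-CS libraries (log2 fold change -1.06 and -0.89, edgeR adjusted p = 5.88e-04 and 0.00635). Its calls were lost in several settings. Against HUWE1-P cells the edgeR adjusted p was 0.0235 without HUWE1-P replicate 3. Against HUWE1-WT cells it was 0.0311 without HUWE1-WT replicate 1, 0.0190 without HUWE1-WT replicate 2, 0.0489 without HUWE1-CS replicate 2 and 0.0428 without HUWE1-CS replicate 3, and also 0.0110 with the length trend taken out, 0.0122 with a replicate block too and 0.0106 with a trend in GC content taken out.

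HERC3, a small HERC protein like HERC4, was sparse as well. It had 11, 25 and 20 counts in HUWE1-P, 25, 18 and 24 in HUWE1-WT and 8, 5 and 11 in HUWE1-CS libraries, with no CPM overlap between HUWE1-CS and control libraries. The log2 fold change was -1.44 against HUWE1-WT (edgeR adjusted p = 8.26e-04, and 0.0175 without HUWE1-CS replicate 2) and -1.13 against HUWE1-P cells (edgeR adjusted p = 0.0132), which did not pass. DESeq2 called neither NEDD4 nor HERC3 in either comparison.

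**Figure D5:**
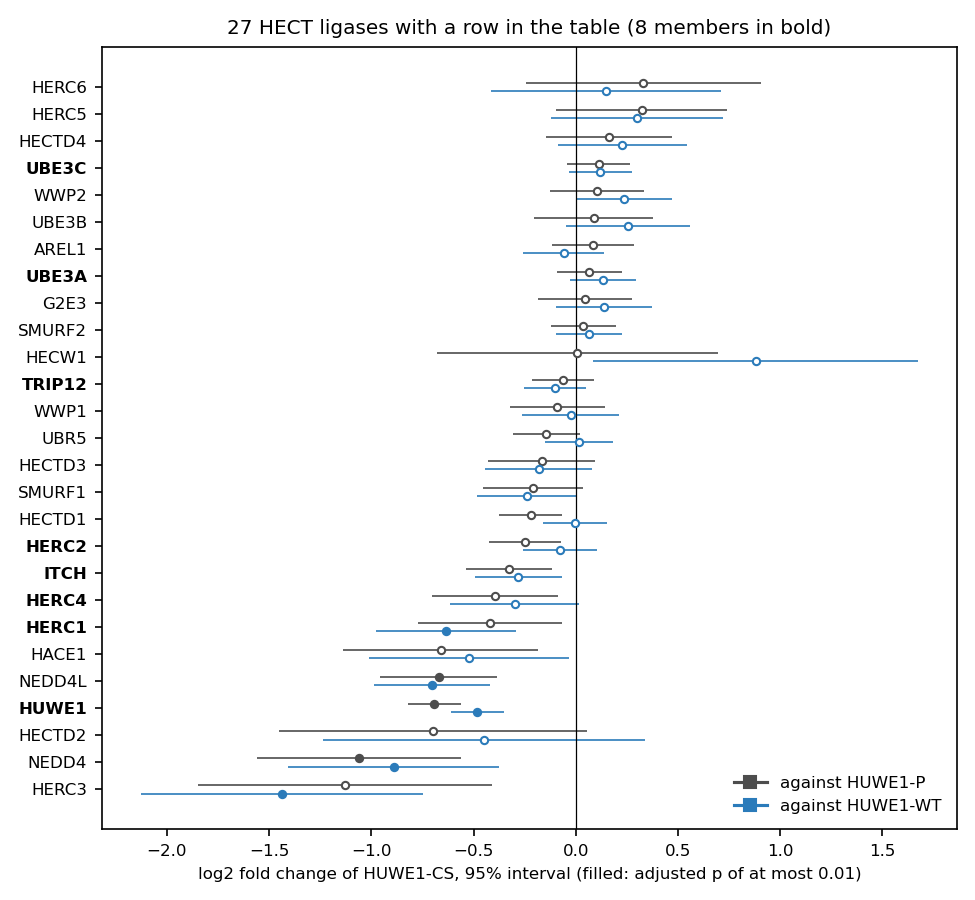
Log2 fold changes with 95% intervals of the 8 members (bold) and the 19 other HECT ligases with a row, against HUWE1-P (grey) and HUWE1-WT cells (blue), ordered by the first. Filled points passed an edgeR adjusted p of 0.01 and are HUWE1, NEDD4L and NEDD4 in both comparisons and HERC1 and HERC3 against HUWE1-WT cells, all of them lower.

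Among genes for ubiquitin and the enzymes that load HECT ligases, the few that were called were higher. Of 13 genes for ubiquitin, E1 and E2 enzymes, 3 rose in HUWE1-CS cells in both comparisons and none fell, beside 8.46% and 7.42% of all genes called higher. The median log2 fold change of the 13 was 0.02 against HUWE1-P and -0.0016 against HUWE1-WT cells, with 5 and 7 genes negative. Against HUWE1-WT cells 5 had an unadjusted edgeR p under 0.05, 2 of them lower, beside 35.0% of all genes in either direction. The polyubiquitin gene UBB had 1332 ± 21.9 CPM in HUWE1-P, 1411 ± 102 in HUWE1-WT and 1758 ± 40.6 in HUWE1-CS cells (log2 fold change 0.40 and 0.32, edgeR adjusted p = 3.56e-09 and 2.12e-06). RPS27A, which encodes ubiquitin fused to a ribosomal protein, had 389 ± 14.8 CPM in HUWE1-P, 382 ± 46.0 in HUWE1-WT and 458 ± 21.5 in HUWE1-CS cells (log2 fold change 0.24 and 0.26, edgeR adjusted p = 0.00424 and 0.00184). UBE2L6, an E2 enzyme for ISG15 and ubiquitin, had 14.8 ± 1.34, 13.2 ± 5.10 and 31.2 ± 7.10 CPM (log2 fold change 1.07 and 1.23, edgeR adjusted p = 3.53e-05 and 4.74e-06).

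RPS27A and UBB varied with the processing. With the length trend taken out the log2 fold change of RPS27A was 0.04 against HUWE1-P (edgeR adjusted p = 0.708) and 0.09 against HUWE1-WT cells (0.314). DESeq2 called RPS27A in neither comparison (DESeq2 adjusted p = 0.0206 and 0.0111). Against HUWE1-P cells the edgeR adjusted p of RPS27A was 0.0141 without HUWE1-P replicate 2, 0.0413 without HUWE1-P replicate 3 and 0.0288 without HUWE1-CS replicate 3. Against HUWE1-WT cells it was 0.0564 without HUWE1-WT replicate 1, 0.0109 without HUWE1-WT replicate 3 and 0.0166 without HUWE1-CS replicate 3. UBB and UBE2L6 passed in all 21 settings of both comparisons, but the log2 fold change of UBB was 0.23 against HUWE1-P and 0.17 against HUWE1-WT cells with the length trend taken out. The E2 enzymes UBE2L3, which serves UBE3A and HUWE1 as well as other HECT ligases, and UBE2D family members did not pass.

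Among 11 partners and adaptors of the members with a row, of 13 listed, 2 fell in both comparisons and none rose, beside 8.58% and 8.08% of all genes called lower and 8.46% and 7.42% called higher. USP7, a deubiquitinase that binds several of these ligases, had 275 ± 15.1 CPM in HUWE1-P, 274 ± 6.65 in HUWE1-WT and 231 ± 18.7 in HUWE1-CS cells (log2 fold change -0.26 and -0.25, edgeR adjusted p = 0.00402 and 0.00651). This call was lost in 6 of 21 alternatives against HUWE1-P and 9 of 21 against HUWE1-WT cells, among them the omission of single libraries. With the length trend taken out the edgeR adjusted p of USP7 was 0.0359 and 0.0323 in the same order. The DESeq2 adjusted p was 0.0303 and 0.0414. Against HUWE1-P cells the edgeR adjusted p was 0.0252 without HUWE1-CS replicate 2, 0.0473 without HUWE1-CS replicate 3 and 0.0613 without HUWE1-P replicate 3. Against HUWE1-WT cells it was between 0.0113 and 0.0343 without HUWE1-WT replicate 1, 2 or 3, 0.0353 without HUWE1-CS replicate 2 and 0.0644 without HUWE1-CS replicate 3. ARRDC3, an arrestin-like adaptor of NEDD4 family ligases, had 34.6 ± 1.35, 32.4 ± 8.32 and 19.0 ± 6.60 CPM in the same order (log2 fold change -0.87 and -0.78, edgeR adjusted p = 2.40e-04 and 0.00157). Without HUWE1-CS replicate 2 its edgeR adjusted p was 0.0217 against HUWE1-P and 0.0642 against HUWE1-WT cells, and without HUWE1-WT replicate 2 it was 0.0512 against the latter. DESeq2 gave ARRDC3 an adjusted p of 0.0263 against HUWE1-WT cells.

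The neighbours of HUWE1 on the X chromosome (GRCh37) are given for context. HUWE1 lies at chrX:53559057-53713697 on the minus strand. Of 10 neighbouring genes with a row, none was called lower, beside 8.58% and 8.08% of all genes, and 1 was called higher, beside 8.46% and 7.42%. HSD17B10, a mitochondrial dehydrogenase gene 97.7 kb away, passed in both comparisons. Its level was 91.9 ± 5.61 CPM in HUWE1-P, 89.2 ± 7.71 in HUWE1-WT and 115 ± 0.670 in HUWE1-CS cells (log2 fold change 0.32 and 0.37, edgeR adjusted p = 0.00939 and 0.00328). The call against HUWE1-P cells was lost in 12 of 21 alternatives (adjusted p up to 0.255, with the length trend taken out), among them the omission of any HUWE1-P or HUWE1-CS library or of HUWE1-WT replicate 3, with adjusted p between 0.0114 and 0.0585. Against HUWE1-WT cells it was lost in 5 of 21, with an adjusted p of 0.0386 without HUWE1-WT replicate 1 and 0.0129 without HUWE1-CS replicate 1. The cohesin gene SMC1A, 109 kb away, had a log2 fold change of -0.24 against HUWE1-P cells (edgeR adjusted p = 0.0116). GNL3L, which encodes a nucleolar GTPase and lies 843 kb away, had one of -0.28 (edgeR adjusted p = 0.0319), and neither passed. At an adjusted p of at most 0.05, 6 of the 10 neighbours passed against HUWE1-P cells, with SMC1A and GNL3L lower and HSD17B10, PHF8, FAM120C and KDM5C higher, beside 26.4% of all genes in either direction.

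Genes were also ranked by how like their pattern was to that of HUWE1. Likeness was taken as the root mean square difference of centred log2 levels over the 9 libraries, among 4838 genes with a mean of at least 50 CPM, where a small value means a like pattern. The nearest were MYH10, a non-muscle myosin heavy chain, with 0.0660, CSPG4, a membrane proteoglycan, with 0.0721, and CAD, which starts pyrimidine synthesis, with 0.0733. MYH10 had 115 ± 3.25 CPM in HUWE1-P, 101 ± 10.4 in HUWE1-WT and 70.9 ± 3.47 in HUWE1-CS cells. Of the members, HERC2 stood in place 841 and ITCH in place 893, and TRIP12, UBE3A and UBE3C in places 1859, 2812 and 2886. HERC1 and HERC4 were below the minimum level and were not ranked. The ranking describes these 9 libraries and was not tested.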

How the data were processed

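RNA-seq was compared in 3 lines of HCT116 cells, with 3 biological replicates each and 9 single-end poly(A) libraries. Reads were trimmed with Skewer and mapped to hg19 with STAR 2.5.4 after bcl2fastq 2.20, per the submitters' processing notes and methods. The authors deposited a table of raw read counts per gene. The counting tool, annotation, use of strand and filter on low genes are not given in the sources used here. Tables of the authors' edgeR 3.26.8 comparisons (fold changes, p-values and FDR) were not used.

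Counts were normalized by TMM and tested with edgeR 4.0.16 (R 4.3.3) by glmQLFit and glmQLFTest with the legacy estimator, in one fit of all 9 libraries with line as the only term. No gene was removed. Library totals of 1610984 to 2060349 counts set the precision, and 3 counts equal 1.45 to 1.86 CPM. Replicates differed by more than sampling noise (chi-square per degree of freedom 1.16 to 1.65). Annotated transcripts (GRCh37) were matched to 11120 of 11350 genes.

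The members and gene lists were typed from general knowledge, with earlier results of these data known. Of the listed genes, 1 is not reported here and was left out of its list. Genes outside the members were named where called or where their pattern was nearest to HUWE1. Some listed genes that were not called, such as neighbours on the X chromosome, were named for context. Alternatives were DESeq2 1.42.0, limma-voom (limma 3.58.1), other scalings, estimators and filters, removal of length or GC trends, a replicate block, an FDR of 0.05 and omission of each library. Scripts were tested on simulated counts. The contrast with both controls and the count ratios, given as a description, were added after the data had been seen.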

Additional observations from a re-analysis of the deposited data

How the results depend on the processing

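HUWE1 passed in all 21 alternative settings against HUWE1-P (log2 fold change -0.72 to -0.50) and HUWE1-WT cells (-0.51 to -0.38). The count of members called against HUWE1-P cells, 1 in the report, was 2 with library totals as scaling (HUWE1 and ITCH), 4 at an FDR of 0.05 (with HERC2, HERC4 and ITCH), and 1 to 2 with a library left out. Against HUWE1-WT cells, where it was 2, it was 1 by DESeq2, 1 with the length trend removed, 1 with the length trend removed and a replicate block, and 1 to 2 with a library left out. HERC1 was the member lost each time. Of the 19 other HECT ligases, 2 were called against HUWE1-P cells, 1 by DESeq2 and 1 to 2 with a library left out. At an FDR of 0.05 it was 5 of 19, all lower, beside 26.4% of all genes in either direction. That share also counts genes that were higher. Against HUWE1-WT cells 3 were called, 1 by DESeq2, 2 with the length trend removed (with or without a replicate block) or the GC trend removed, and 1 to 3 with a library left out. The causes were not tested. Deviations from the line means were correlated between libraries of different lines over 8183 genes. The correlations were weak, at -0.032 to 0.093 for same-numbered libraries and -0.095 to 0.033 for differently numbered ones. Whether replicate numbers pair the samples was not tested. With the replicate block HUWE1 had log2 fold changes of -0.69 and -0.48 and the member counts stayed at 1 and 2.

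Among single members, 15 values changed sign, none past the threshold. TRIP12 against HUWE1-P cells was 0.089 with the length trend removed, 0.092 with a replicate block too, and -0.18 to 0.020 with a library left out. HERC2 against HUWE1-WT cells was 0.023 with the length trend removed, 0.024 with a replicate block too, and -0.17 to 0.043 with a library left out. In HUWE1-WT against HUWE1-P cells, with a library left out, TRIP12 was between -0.010 and 0.10, HERC4 between -0.24 and 0.10, UBE3C between -0.046 and 0.028 and ITCH between -0.20 and 0.043. At 40 to 72 counts of HERC1 in a library, depth limits that gene most.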
